A study of Mus musculus with 6 samples.

Results

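The genes described here are *Nrp1*, *Nrp2*, *Sema4a*, *Sema4b*, *Sema4d*, *Sema7a*, *Plxnb2*, *Plxnc1* and *Plxnd1*, 9 neuropilin, semaphorin and plexin genes among the 45777 genes listed for splenic CD4+ T cells of the mouse. They were chosen by name, and the transcript counts of each were summed per gene symbol. All 9 were listed and all 9 were among the 16123 genes that passed the filter on low counts. CD4+Lrig1+ and CD4+Lrig1- T cells had been sorted from spleens of female C57BL/6 mice, an inbred strain, at 7 weeks of age, and are called Lrig1+ and Lrig1- T cells below. The labels list no transgene, deletion or treatment for either group, and the groups differ by the surface protein Lrig1 on which the cells were sorted. The labels list 6 samples, 3 per group. The 4 libraries analysed are 1 Lrig1+ and 1 Lrig1- library in each of 2 deposited tables, called set 1 and set 2. The study describes its quantitative data in general as coming from independent samples or experiments. What the libraries of a set share is not given in the sources used here. The p-values come from these libraries only, with a spread that the test estimates partly from other genes. With the set as a term, they leave out the spread between the sets.

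Semaphorins are secreted or membrane-bound proteins first known for steering growing axons, and many of them also act between immune cells. Plexins are their main receptors and act on small GTPases inside the cell. Neuropilins bind semaphorins and vascular endothelial growth factors and pass the signal on together with a plexin or another receptor. In mouse CD4+ T cells, Nrp1 is best known as a surface marker of regulatory T (Treg) cells that arise in the thymus, and Sema4a is known as one of its ligands.

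The genes with the largest difference in each direction were *Nrp1* and *Sema4a*, and the DNA at 1 annotated transcription start of each is shown for that reason. Each window runs from 250 bases before to 50 bases after the start, 5′ to 3′ on the strand of the gene, from RefSeq on GRCm38.p6. Capitals mark GGGCGG or its reverse complement, the core of a GC box. The *Nrp1* window is chr8:128358823-128359122 on the plus strand, and the *Sema4a* window is chr3:88455712-88456011 on the minus strand.
Nrp1: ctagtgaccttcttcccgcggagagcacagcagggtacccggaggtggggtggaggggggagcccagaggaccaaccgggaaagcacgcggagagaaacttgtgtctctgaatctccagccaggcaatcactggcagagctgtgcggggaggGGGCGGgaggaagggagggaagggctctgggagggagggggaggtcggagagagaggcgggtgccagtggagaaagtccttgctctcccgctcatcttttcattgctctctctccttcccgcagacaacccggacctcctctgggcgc
Sema4a: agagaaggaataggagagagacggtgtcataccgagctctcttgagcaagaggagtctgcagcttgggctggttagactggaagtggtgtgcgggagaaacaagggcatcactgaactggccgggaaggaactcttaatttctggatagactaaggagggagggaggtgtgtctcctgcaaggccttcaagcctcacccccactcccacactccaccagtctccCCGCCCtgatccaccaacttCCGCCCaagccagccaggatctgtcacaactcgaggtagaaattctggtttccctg
The *Nrp1* window held 1 match and 64.0% G and C, with 14 CpG. The *Sema4a* window held 2 matches, both on the opposite strand, and 55.3% G and C, with 7 CpG. The median of the 32851 mouse promoter windows of the same length was 52.7% G and C. GGGCGG was found on either strand in 35.7% of those windows and in 13 of the 16 windows listed for the 9 genes. These 16 windows held 51.0% to 71.7% G and C, for which the comparison was not adjusted, and some windows of *Sema4a* overlap. The letters TATAAA (13.6% of all windows), CCGGAAG (8.86%), TGTGGTT (5.27%), TGTTTAC (3.65%), TGACTCA (5.20%) and the κB site (0.155%) were in none of the 16. The windows hold only some of the annotated starts. No *Sema4d* window covers position 51793747, where transcripts with 92.6% to 99.1% of the *Sema4d* TPM start. The 4 *Nrp1* transcripts that start inside its window held 22% and 36.5% of the *Nrp1* TPM (a level scaled by transcript length and library) in the Lrig1+ and Lrig1- libraries of set 1, and 42.2% and 14.1% in set 2. The other 2, variants X1 and X2, start upstream of it and held the rest. The only *Sema4a* transcript that starts inside its window held 20.8% and 36.1% of the *Sema4a* TPM in set 1, and 36% and 22.3% in set 2. *Sema4a* has annotated starts in 3 clusters, and its window lies at the upstream edge of the cluster with most of the TPM. The 5 transcripts starting between positions 88455228 and 88455761 held 93.7% and 94.5% of the *Sema4a* TPM in the Lrig1+ and Lrig1- libraries of set 1, and 99.9% and 97.9% in set 2.

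The libraries held from 44865070 to 59977951 estimated counts. Levels of a gene are given as CPM (counts scaled by library size with TMM factors). The correlation of log2 CPM over genes, which are no independent replicates, was 0.960 and 0.959 between the groups of a set and 0.908 between the sets of each group, and the fit held the set as a term. *Lrig1* was at 221 and 129 CPM in the Lrig1+ libraries and at 75.4 and 36.7 CPM in the Lrig1- libraries of sets 1 and 2, in the order of the labels. The summed CPM of 6 T cell markers was 2646 to 4350 in the 4 libraries. The summed CPM of 6 Treg markers was 3050 and 2777 in Lrig1+ against 494 and 386 in Lrig1- T cells. All 6 were called higher in the fit with set as a term, as were 14.6% of all genes. With group only, none of the 6 passed (edgeR adjusted p of 0.501 or more). *Foxp3*, the defining transcription factor of Treg cells, was at 589 and 615 CPM against 48.9 and 30.7 CPM. In bulk RNA, a smaller share of cells with a transcript and less of it per cell cannot be told apart, and the part of Treg content in the results below was not tested.

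Of the 9 genes, *Nrp1*, *Plxnc1* and *Plxnd1* were higher and *Sema4a* was lower in Lrig1+ T cells, and 5 genes did not pass (edgeR quasi-likelihood test with set as a term, Benjamini-Hochberg adjusted p under 0.05 over all genes). In the same test 14.6% of all genes were called higher and 12.8% lower, 27.4% in all. The median log2 fold change, Lrig1+ over Lrig1-, was 0.58 over the 9 genes and -0.04 over all genes tested. With group as the only term, none of the 9 passed, and neither did any of the 16123 genes (0.0%), although 901 of them (5.59%) had an unadjusted p under 0.05. *Nrp1* had an unadjusted p of 0.000425 in that fit and *Sema4a* 0.0228, and the other 7 genes had 0.147 to 0.856. An exact permutation test of 2 libraries against 2 cannot give a p below 0.333.

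**Figure D1:**
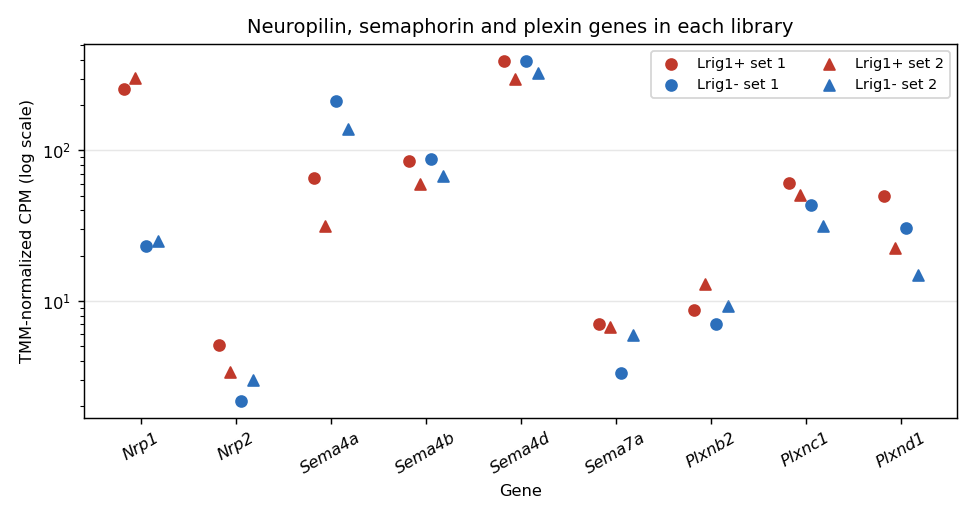
TMM-normalized CPM (log axis) of the 9 genes, with 1 point per library, red for Lrig1+ and blue for Lrig1-, circles for set 1 and triangles for set 2. The *Nrp1* points of the groups lie furthest apart (256 and 304 against 23.2 and 24.9 CPM), *Sema4a* is reversed, and the *Sema4d* points nearly coincide.

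The neuropilins came first by role. In set 1, *Nrp1* (gene ID 18186, chr8:128358591-128505476, plus strand of GRCm38.p6) had 13295 estimated counts (256 CPM) in the Lrig1+ and 1110 (23.2 CPM) in the Lrig1- library. In set 2 it had 17443 counts (304 CPM) and 1347 counts (24.9 CPM). Each Lrig1+ library was above each Lrig1- library, as was so for 14.3% of all genes. The means were 280 ± 34.0 and 24.1 ± 1.24 CPM (SD, n = 2), and the fitted level was 11.6-fold higher with Lrig1. Its log2 fold change was 3.54 (SE 0.09, adjusted p = 3.79e-06 by edgeR; 0.501 with group only), and the sets gave log2 ratios of 3.46 and 3.60. By log2 fold change it ranked 253 from the top of the 16123 genes tested. In the fit with group only, no gene had an adjusted p below that 0.501.

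*Nrp2*, which binds other secreted semaphorins and VEGF-C, was at 5.11 and 2.17 CPM in the Lrig1+ and Lrig1- libraries of set 1 and at 3.38 and 2.98 CPM in set 2. The groups did not overlap, but the ratio was mostly that of set 1. Its log2 fold change of 0.70 (SE 0.29) did not pass (edgeR adjusted p = 0.122), and the log2 ratios were 1.22 and 0.18. Per length, *Nrp2* had the lowest level of the 9 genes in every library, between 0.621 and 1.93 TPM. *Nrp1*, by contrast, had 107 and 77.7 TPM in Lrig1+ T cells, second only to *Sema4d* there, and 9.93 and 5.86 TPM in Lrig1- T cells, where it ranked 6 and 5 of the 9.

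The long noncoding RNA gene *Gm32643* is annotated inside *Nrp1* (chr8:128453055-128492985). It had 19 and 16 counts in the Lrig1+ libraries and 0 in both Lrig1- libraries. The libraries were made with a stranded kit, but the strand setting of the authors' counting is not given in the sources used here, and reads of overlapping genes cannot be told apart.

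Among the semaphorins, *Sema4a* (gene ID 20351, chr3:88435959-88461240, minus strand) moved the other way from *Nrp1*. In set 1 it had 3389 counts (65.2 CPM) in the Lrig1+ and 10222 (213 CPM) in the Lrig1- library, and 1820 (31.7 CPM) and 7519 (139 CPM) in set 2. Each Lrig1+ library was below each Lrig1- library, as was so for 11.8% of all genes. The means were 48.4 ± 23.7 and 176 ± 52.5 CPM (SD, n = 2), and the fitted level was 3.78-fold lower with Lrig1. The log2 fold change of *Sema4a* was -1.92 (SE 0.11, edgeR adjusted p = 3.86e-05; 0.698 with group only), with log2 ratios of -1.71 and -2.13 in the sets. By log2 fold change it ranked 250 from the bottom. Per length it was second of the 9 genes in Lrig1- T cells (171 and 61.8 TPM) and ranked 4 in Lrig1+ T cells (50.3 and 15.1 TPM).

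*Sema4a* is also made by dendritic cells and other cells that present antigen. Of 7 dendritic cell markers, 6 were lower in both sets and 1 was higher in both (41.3% and 36.5% over all genes). The summed CPM of 7 dendritic cell markers was 14.3 and 12.7 in the Lrig1+ and 58.3 and 57.1 in the Lrig1- libraries. Of the 7, *Siglech*, *Flt3*, *Itgax* and *Clec10a* were called lower (12.8% over all genes). The other 3 did not pass, among them the marker higher in both sets (log2 fold change 1.24). None of the 7 was at 0 in all libraries. The dendritic cell sums were below the CPM of *Sema4a* itself in each library, but CPM of different genes gives no share of cells. The part of dendritic cells in the *Sema4a* difference was not tested. The summed CPM of 10 B cell markers was 98.3 and 78.5 in set 1 and 391 and 775 in set 2, and *Ms4a1* and *Cr2* were called lower. Of 11 myeloid markers 4 were called higher and 4 lower, with sums of 51.7 and 48.9 in set 1 and 251 and 222 in set 2. Both CD8 markers were called lower (sums of 14.1 and 19.5, then 51.6 and 97.3), as were 2 of 4 NK markers, with 1 called higher (31.2 and 28.1, then 57.8 and 64.8). For these B cell, myeloid, CD8 and NK counts, the shares over all genes were 14.6% called higher and 12.8% called lower.

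The other semaphorins of the list did not pass. *Sema4d*, known as CD100 and a ligand of plexin-B1 and CD72, was at 391 and 393 CPM in set 1 and at 297 and 329 CPM in set 2. It had the highest level per length of the 9 genes in every library (217, 225, 100 and 103 TPM), and its groups overlapped. Its log2 fold change was -0.08 (SE 0.09, edgeR adjusted p = 0.554). *Sema4b*, a membrane semaphorin, was at 85.2 and 88.4 CPM in set 1 and at 60.2 and 67.2 CPM in set 2, with a log2 fold change of -0.10 (SE 0.07, edgeR adjusted p = 0.339). For both genes the gap between the sets was wider than that between the groups. *Sema7a*, which is tethered to the membrane by a lipid anchor and binds plexin-C1 and β1 integrins, was at 7.08 and 3.34 CPM in set 1 and at 6.70 and 5.91 CPM in set 2. Its groups did not overlap, the log2 ratios were 1.07 and 0.18, and its log2 fold change of 0.62 (SE 0.23) had an edgeR adjusted p of 0.0941. With at least 10 counts required in every library it passed at 0.0486.

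The estimated shares of the *Sema4d* transcripts differed between the groups more than the gene total did. Variant 1 (NM_001281880) and variant 2 (NM_013660) have 17 and 16 exons and identical coding exons. They differ by an exon of 64 bases in the 5′ untranslated region at chr13:51734507-51734570. Variant 1 made up 32.9% of the *Sema4d* TPM with Lrig1 and 15.2% without it in set 1, and 37.6% and 16.8% in set 2. Variant 2 made up 61.5% and 83.9% in set 1 and 55.0% and 80.9% in set 2. Variant X1, which starts at position 51756878, made up 5.28% and 0.723% in set 1 and 7.34% and 2.27% in set 2. The shares of all 3 were apart between the groups in both sets. In a fit over 45339 transcripts, chosen after the shares were seen, variant 1 had a log2 fold change of 1.08 (SE 0.10) and variant 2 of -0.57 (SE 0.10), both with an edgeR adjusted p of 0.881. No transcript passed in that fit (0.0% in either direction), and 2167 (4.78%) had an unadjusted p under 0.05. The shares are StringTie's estimates from paired reads of overlapping transcripts, so that they carry an assignment error that the tables do not give.

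**Figure D2:**
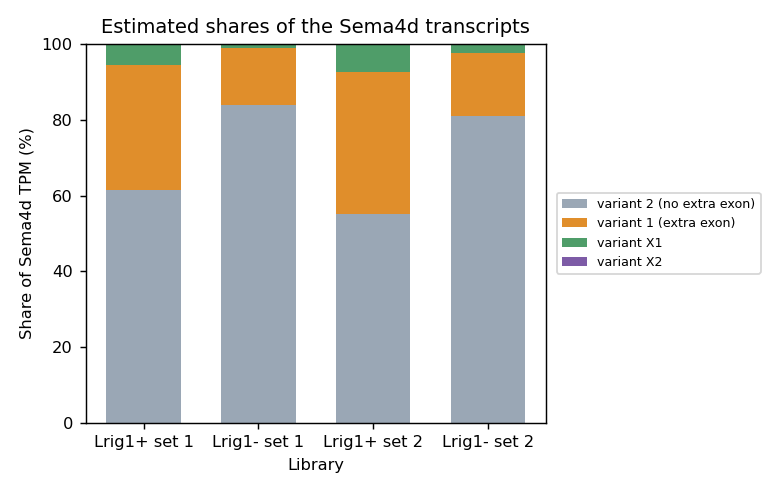
Stacked bars of the share (%) of *Sema4d* TPM given to each of its 4 annotated transcripts in each library. The orange part, variant 1 with the additional exon, takes 32.9% and 37.6% in the Lrig1+ libraries against 15.2% and 16.8% in the Lrig1- libraries, while variant X2 takes at most 0.353%.

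In each set, the 3 plexins of the list had a higher level with Lrig1 than without. Of the 3, 2 were called higher, against 14.6% of all genes. Of the 9 genes 6 were higher in both sets and 3 lower, against 36.5% and 41.3% of all genes. *Plxnc1* (gene ID 54712, chr10:94790866-94945015, minus strand), the receptor of Sema7a, was at 60.6 and 43.2 CPM in set 1 and at 50.2 and 31.4 CPM in set 2. The groups did not overlap, with means of 55.4 ± 7.32 and 37.3 ± 8.34 CPM (SD, n = 2). Its log2 fold change was 0.58 (SE 0.09, edgeR adjusted p = 0.00293; 1.00 with group only).

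*Plxnd1* (gene ID 67784, chr6:115954811-115995339, minus strand), a receptor of Sema3e and Sema4a, was at 50.1 and 30.3 CPM in set 1 and at 22.5 and 14.9 CPM in set 2. The Lrig1+ library of set 2 lay below the Lrig1- library of set 1, so that the groups overlapped, while the log2 ratios within the sets were 0.72 and 0.59. Its log2 fold change was 0.66 (SE 0.09, edgeR adjusted p = 0.00210; 1.00 with group only). With limma on log2(FPKM + 0.1), neither *Plxnc1* (adjusted p = 0.0833) nor *Plxnd1* (0.0544) passed.

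*Plxnb2*, a receptor of membrane semaphorins, was at 8.77 and 7.04 CPM in set 1 and at 13 and 9.20 CPM in set 2. Its groups overlapped, and its log2 fold change of 0.41 (SE 0.13) had an edgeR adjusted p of 0.0538. It passed at 0.0457 with at least 10 counts required in every library. By overlap, the Lrig1+ libraries were both above the Lrig1- ones for 4 of the 9 genes and both below for 1, so that 5 did not overlap, against 26.1% of all genes.

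The wider family holds 31 semaphorin, plexin and neuropilin genes, of which 21 were tested. In Lrig1+ T cells 8 were higher and 3 lower, against 14.6% and 12.8% of all genes, and 10 did not pass. The median log2 fold change of the 21 was 0.58. Outside the 9 genes, 5 rose and 2 fell, and 2 of those that rose were plexins. *Plxnb1*, the receptor of Sema4d, was at 19.0 and 6.35 CPM in set 1 and at 5.05 and 2.24 CPM in set 2 (log2 fold change 1.40, SE 0.16, edgeR adjusted p = 0.000849). *Plxna3*, which pairs with neuropilins, was at 27.5 and 13.1 CPM in set 1 and at 4.84 and 2.33 CPM in set 2 (log2 fold change 1.06, edgeR adjusted p = 0.000778). Both plexins were lower in set 2 than in set 1 in each group, and their groups overlapped.

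Among the remaining semaphorins the called genes were low, except for *Sema4f*. *Sema4f*, a membrane semaphorin, was at 28.2 and 42.0 CPM in set 1 and at 20.5 and 35.1 CPM in set 2 (log2 fold change -0.68, edgeR adjusted p = 0.00213). *Sema4c* had 213 and 24 counts in set 1 and 121 and 42 in set 2 (log2 fold change 2.20, adjusted p = 0.00946). *Sema3d* had 86 and 24 counts, then 54 and 18 (1.61, adjusted p = 0.0300). For these genes, and for *Sema6d* and *Sema3f* below, the groups did not overlap, as was so for 26.1% of all genes. *Sema6d* had 118 and 22 counts, then 131 and 72 (log2 fold change 1.47, adjusted p = 0.0421). *Sema3f*, a ligand of Nrp2, had 9 and 44 counts, then 0 and 27 (log2 fold change -3.35, adjusted p = 0.0367), and its fitted fold depends on the library at 0. All of these had an adjusted p of 0.722 or more with group only. The secreted semaphorins *Sema3a*, *Sema3b*, *Sema3c* and *Sema3e*, and *Sema5b*, had 0 counts in all 4 libraries, which allows up to 3 counts or 0.0522 to 0.0627 CPM in each, by counting error only.

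**Figure D3:**
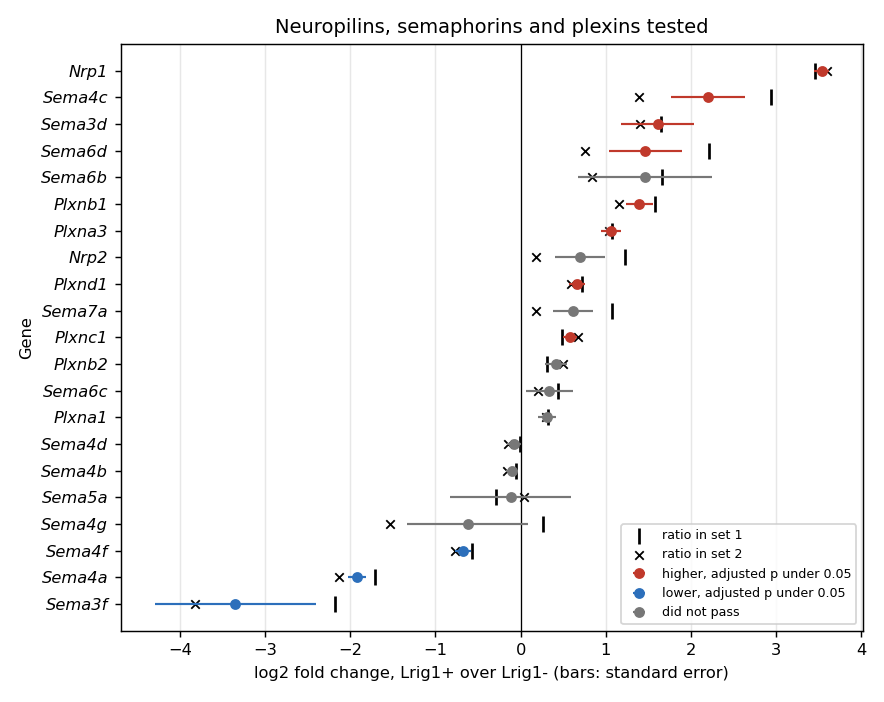
Log2 fold change, Lrig1+ over Lrig1-, of the 21 family genes tested, with bars for the standard error, colours for the call and black marks for the log2 ratio in each set. *Nrp1* stands at 3.54 with a small error, *Sema4a* at -1.92, and *Sema3f* at -3.35 with the widest bar.

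The partners of the pathway were 38 genes, of which 31 were tested. In Lrig1+ T cells 7 were higher and 5 lower, against 14.6% and 12.8% of all genes, 19 did not pass, and the median log2 fold change was 0.11. Among other semaphorin receptors, *Itgb1*, the β1 integrin chain that binds Sema7a, rose from 168 and 240 CPM in Lrig1- to 470 and 706 CPM in Lrig1+ T cells (log2 fold change 1.52, SE 0.09, edgeR adjusted p = 3.86e-05). *Itga1*, an α chain that pairs with it, fell from 112 and 38 counts to 22 and 7 (log2 fold change -2.48, adjusted p = 0.00701). *Cd72*, the receptor of Sema4d on B cells, was at 16.7 and 15.1 CPM in set 1 and 18.6 and 23.3 CPM in set 2 and did not pass.

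Of the 5 tested factors and receptors that use neuropilins, 1 passed. Of the 3 tested enzymes that shed semaphorins or neuropilins, 1 passed. Both were higher, as were 14.6% of all genes. *Vegfc*, a ligand of Nrp2, had 64 and 62 counts in Lrig1+ against 0 and 16 in Lrig1- T cells (log2 fold change 3.18, edgeR adjusted p = 0.0456), and its fitted fold depends on the library at 0. *Mmp14*, a membrane protease, was at 7.56 and 15.9 CPM against 2.84 and 3.0 CPM (log2 fold change 1.93, adjusted p = 0.00127). *Adam10* and *Adam17*, the other sheddases of the list, had log2 fold changes of 0.18 (SE 0.07) and 0.00 (SE 0.07) and did not pass.

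Of the 22 genes that act below plexins and neuropilins, 19 were tested, with 4 higher and 4 lower (14.6% and 12.8% over all genes). *Arhgef12*, an exchange factor bound by B-type plexins, had a log2 fold change of 1.44 (edgeR adjusted p = 7.13e-05), with 72.4 and 25.5 CPM in set 1 and 23.3 and 9.02 CPM in set 2. Its relative *Arhgef11* had -0.78 (adjusted p = 0.00107), with 62.5 and 97.0 CPM in set 1 and 25.5 and 49.0 CPM in set 2. These related exchange factors thus moved in opposite directions in both sets.

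The Rac exchange factor *Farp1*, a plexin partner, was at 23.4 and 4.70 CPM in set 1 and at 13.2 and 4.13 CPM in set 2 (log2 fold change 2.0, edgeR adjusted p = 0.000244). *Crmp1*, a collapsin response mediator, had a log2 fold change of 1.18 (adjusted p = 0.000698), and *Rhod*, a small GTPase that binds plexins, had 2.56 (adjusted p = 0.00950). Lower were the GTPase *Rnd3* (-2.67, adjusted p = 0.000936), the kinase *Fes* (-1.41, adjusted p = 0.00305) and the GTPase-activating protein *Sh3bp1* (-0.49, adjusted p = 0.00323). With group only, every partner had an adjusted p of 0.635 or more.

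**Figure D4:**
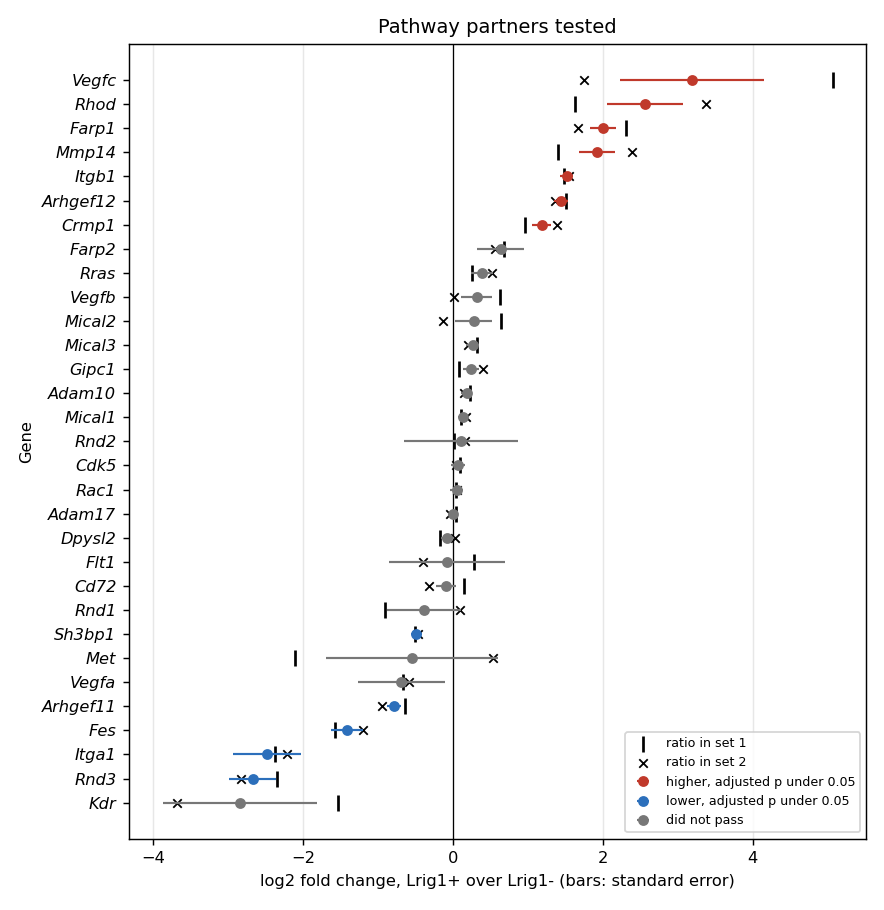
Log2 fold change, Lrig1+ over Lrig1-, of the 31 partners tested, drawn as for the family. Values run from -2.84 for *Kdr*, which did not pass, to 3.18 for *Vegfc*, with a median of 0.11.

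The genes whose pattern was most like that of *Nrp1* were found by the distance between log2 CPM over the 4 libraries, each gene centred on its own mean, among 12784 genes with a mean count of at least 50. They were *Spock2* (distance 0.194), *D430019H16Rik* (0.195), *Csf1* (0.225), *Tmem158* (0.249) and *Bcam* (0.272). *Csf1*, a growth factor for macrophages, was at 37.2 and 3.43 CPM in set 1 and at 40.7 and 4.13 CPM in set 2. The nearest gene was *Hs3st3b1* for *Sema4a* (distance 0.140), *Rpusd1* for *Plxnc1* (0.0332) and *Trps1* for *Plxnd1* (0.0853). With 4 libraries such distances are a description only.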

How the data were processed

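RNA of sorted splenic CD4+ T cells was sequenced by the authors as paired-end reads from a stranded mRNA kit. Per the methods and the submitters' processing notes, reads were trimmed with Trimmomatic 0.38, mapped with HISAT2 2.1.0 and assembled with StringTie 2.1.3b, and the notes name GRCm38. The estimated counts are the authors' values for each of 129299 transcripts, not normalized as deposited. The FPKM and TPM values were scaled by transcript length and library by the authors as deposited. 6 columns of per-sample values in a further table were not used here, since their names do not give the Lrig1 group.

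Transcript counts were added up for each gene symbol. Under R 4.3.3, edgeR 4.0.16 filtered genes with filterByExpr, normalized by TMM and ran the quasi-likelihood test with set and group as terms, which leaves 1 residual degree of freedom (2 with group only). The test moderates the spread of each gene with that of all genes, and each edgeR SE was derived from its F statistic. The methods name EdgeR with no covariate. The set term was chosen because earlier results of these data showed the sets to differ. Adjusted p values are Benjamini-Hochberg over all genes tested, with a threshold of 0.05. A prior count of 2 entered the log2 ratios of each set. The members and lists were chosen with earlier results of these data known. Named were the 9 genes, every called gene of the family and partner lists, the nearest genes by pattern, and markers; *Cd72*, *Adam10*, *Adam17* and *Kdr*, and the family genes at 0 counts, were named after their values were seen. Alternatives used DESeq2 1.42.0, limma 3.58.1 and other filters. Scripts were tested on simulated data. Gene positions span the transcript positions given by the authors. Promoter windows came from RefSeq on GRCm38.p6, and all 9 genes matched by gene ID. Strands and the *Sema4d* exons came from the GENCODE annotation of the same build. Libraries of 44865070 to 59977951 counts limit precision mainly for genes with few counts.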

Additional observations from a re-analysis of the deposited data

How the results depend on the processing

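The columns carry no replicate numbers, so that only the set could serve as the replicate block. Without that block, in the edgeR fit with group only, the numbers of genes called were 0 higher and 0 lower among the 9 genes, the family, the partners and all genes. The spread between the sets then enters the error. Every other alternative with a test of genes kept *Nrp1* higher and *Sema4a* lower past the threshold. In the edgeR fit over transcripts, 0 transcripts of the 9 genes were called higher and 0 lower. Without a filter on low counts, 5 family genes were higher, and 1304 genes were higher and 820 lower over all genes (2358 and 2056 in the report). With at least 10 counts in every library, 5 of the 9 genes were higher, with *Sema7a* and *Plxnb2* added. An adjusted p under 0.1 also gave 5. With limma on log2(FPKM + 1), 3 family genes were higher, 3 partners were higher and 2 lower, and 1393 genes were higher and 742 lower. With limma on log2(FPKM + 0.1), 1 of the 9 genes was higher (*Nrp1*), 2 family genes were higher, 2 partners were higher and 1 lower, and 910 genes were higher and 327 lower. The causes were not tested. DESeq2's size factors and its Wald test gave 3 higher and 1 lower of the 9 genes, as in the report.

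With a library left out, the set term leaves only the ratio of the other set, which has no test. These log2 ratios kept their sign for all 9 genes, with 3.46 to 3.60 for *Nrp1* and -2.13 to -1.71 for *Sema4a*. The call of no gene can be checked in this way. Low counts limit the precision of genes such as *Sema3d*, *Sema3f*, *Vegfc*, *Itga1* and *Rhod*.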

Other observations

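Within some of the 9 genes the estimated shares of transcripts differed widely between libraries. For *Nrp1*, variant X2 took 27.2% and 2.03% of the TPM in the Lrig1+ and Lrig1- libraries of set 1 and 13.3% and 21.4% in set 2. For *Plxnb2*, the transcripts starting at position 89180788 took 51.8% and 35.6% in set 1 and 0.0% and 75.3% in set 2. For *Sema4b*, the upstream start at position 80186841 took 2.32% and 0.597% in set 1 and 15.2% and 8.79% in set 2, with the larger share in the Lrig1+ library of each set. These are values without a test.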
